A study of Mus musculus with 74 samples.

Results

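Neutrophil alarmins are proteins that neutrophils store and release on activation, and the interleukin-1 (IL-1) family comprises cytokines, receptors and inhibitors that start and limit inflammation. The 10 genes described here were chosen by name: the alarmins S100a8 and S100a9, the siderophore-binding lipocalin Lcn2, the G-CSF receptor Csf3r, the ligands Il1a, Il1b and Il33, the decoy receptor Il1r2, the receptor antagonist Il1rn and the IL-33 receptor Il1rl1. They were read from the authors' comparisons of lung metastases (Lung mets) with primary mammary tumors (PTs), which hold both group means for 17270 to 19320 genes per model. All 10 genes had a row in the Her2, C3Tag, SEAGN and AKR-named tables, and 9 had one in BALB, where Il1rl1 was not listed by name, which gave 49 pairs of means. Genes were matched by symbol, which 2671 genes in BALB and 2684 in SEAGN lack, against 8 to 13 in Her2, C3Tag and AKR-named. In BALB and SEAGN a gene without a row thus cannot be told from an unnamed one. A Myc table was also deposited, but it holds the authors' test results without means, so Myc is not described.

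The series holds 74 bulk RNA-seq samples of dissected mouse tissue. They comprise 6 PTs and 6 Lung mets of FVB Her2 (MMTV-driven neu), FVB Myc (MMTV-driven Myc) and each of the AKR, BALB and SEAGN PyMT-F1 crosses (female progeny of PyMT males and AKR/J, BALB/cJ or Sea/GnJ females, with MMTV-driven polyoma middle T), and 7 PTs and 7 Lung mets of FVB C3Tag (SV40 T antigen under the C3(1) promoter). All animals were transgene-positive females, and the MMTV and C3(1) promoters place the oncogene mainly in mammary epithelium. According to the methods, single-lesion tumors of the driver models were resected and the animals kept for a further set period or until near their endpoint, so PT and Lung met of such an animal were taken at different times, whereas PyMT-F1 animals were aged to their endpoint. The strain labels of the PyMT-F1 samples contradict each other and the sample names were followed. The table deposited under AKR holds fold changes that the study's supplement lists for another PyMT-F1 cross, so the strain behind it is uncertain and it is called AKR-named here.

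The values are the authors' means of normalized counts per group, so neither the spread between animals nor the depth of a sample is known. No difference given here was tested, and a fold of at least 2 between both means serves only as a size. Whether the tables were normalized together is not known, so levels are compared within a table and not between tables. The sums of the means over all genes were similar in PT and Lung met except in C3Tag, where the sum in Lung met was 0.573 times that in PT. The median log2 ratio of Lung met over PT over all genes lay between -0.0013 and 0.030 in the 5 tables. In bulk tissue, a change in the number of cells of a type and a change in the RNA per cell cannot be told apart.

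S100A8 and S100A9 pair into calprotectin, which makes up much of the neutrophil cytosol and signals through TLR4 and RAGE, and G-CSF acting on Csf3r drives the production and survival of neutrophils. IL-1 alpha and IL-1 beta share the receptor Il1r1 with its partner Il1rap and signal through Myd88 to NF-kB. Il1rn occupies that receptor without signaling and Il1r2 binds IL-1 without passing a signal on. IL-33 is held in the nuclei of epithelial and endothelial cells, is set free by damage, and acts on Il1rl1 (ST2) of mast cells, type 2 innate lymphoid cells and regulatory T cells. Lcn2 is made by neutrophils and also by epithelial cells, the mammary epithelium included.

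The promoter sequences of 3 members are shown because S100a8 and S100a9 had the highest median ratios of the set and Il1b is its central cytokine. The windows searched were the 250 bases before each RefSeq transcript start on GRCm38.p6, written 5′ to 3′ on the strand of the gene, with matches on either strand to 3 short motifs in capitals. The motifs are the TATA box TATAAA, the C/EBP pattern TTNNGNAA and the PU.1 core GAGGAA. For S100a8 the first 157 bases are shown, as the rest of its window lies in an exon of the GENCODE M21 annotation.
S100a8 (chr3:90668821-90668977, plus strand): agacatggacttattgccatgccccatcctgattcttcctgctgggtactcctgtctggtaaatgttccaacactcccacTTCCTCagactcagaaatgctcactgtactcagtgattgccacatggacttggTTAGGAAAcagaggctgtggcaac
S100a9 (chr3:90695722-90695971, minus strand): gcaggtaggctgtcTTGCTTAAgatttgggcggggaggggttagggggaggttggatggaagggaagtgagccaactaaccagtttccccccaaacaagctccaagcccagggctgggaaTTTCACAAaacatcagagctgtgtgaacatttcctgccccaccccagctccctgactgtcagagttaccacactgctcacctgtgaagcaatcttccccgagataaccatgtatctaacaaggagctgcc
Il1b (chr2:129371140-129371389, minus strand): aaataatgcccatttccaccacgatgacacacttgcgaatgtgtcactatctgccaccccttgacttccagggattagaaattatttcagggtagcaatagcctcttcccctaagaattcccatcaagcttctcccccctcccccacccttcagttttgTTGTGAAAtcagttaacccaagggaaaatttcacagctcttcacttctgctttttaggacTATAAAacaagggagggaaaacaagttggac

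In S100a8 a PU.1 core began 170 bases and a C/EBP match 117 bases before the RefSeq start, and the stretch not shown held another PU.1 core at 36 and a TATA box at 30 bases. S100a9 held C/EBP matches at 236 and 130 bases. Il1b held a C/EBP match at 91 and a TATA box at 31 bases. Lcn2, whose window overlaps exons in GENCODE and is not shown, held a C/EBP match at 216 and a PU.1 core at 20 bases. C/EBP and PU.1 factors are known regulators of myeloid genes. RefSeq gave 14 windows for the 10 members, of which 11 held the C/EBP pattern against 36.8% of all 32851 windows of the same length, 5 held the TATA box against 12.4% and 4 held the PU.1 core against 23.3%. Windows 2 and 3 of Il1rn overlap and share a C/EBP match, so the windows are not independent. Counted by gene, 8 of the 10 members held the C/EBP pattern. No enrichment was tested. The patterns are short or loose, and a match describes letters, not binding.

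The members lie in several places of the genome (GRCm38, GENCODE M21). S100a8 (chr3:90668978-90670035) and S100a9 (chr3:90692632-90695721) are neighbors with opposite strands and 22596 bases between them, and Il1a (chr2:129299610-129309972) and Il1b (chr2:129364570-129371139) lie 54597 bases apart on the same strand. Lcn2 (chr2:32384633-32388252) and Il1rn (chr2:24336853-24351494) are elsewhere on that chromosome. The receptor genes Il1r2 (chr1:40074079-40125231) and Il1rl1 (chr1:40429570-40465415) share the IL-1 receptor cluster, and Csf3r (chr4:126024550-126044440) and Il33 (chr19:29925114-29960718) lie alone.

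Means of most members were higher in Lung mets than in PTs, and none was 2-fold lower. A fold of at least 2 in favor of Lung mets was present in 4 of 10 members in Her2, 6 of 10 in C3Tag, 4 of 9 in BALB, 5 of 10 in SEAGN and 8 of 10 in AKR-named. Of all genes with both means, 2.38% in Her2, 7.42% in C3Tag, 2.26% in BALB, 2.86% in SEAGN and 7.31% in AKR-named were higher by this measure. In the other direction it was 0 members in every table, with 1.43%, 1.70%, 2.40%, 3.22% and 1.73% of all genes in the same order. Over the 49 pairs of means, 43 had a ratio above 1. The median log2 ratio of the members was 0.57 in Her2, 1.23 in C3Tag, 0.82 in BALB, 1.03 in SEAGN and 1.59 in AKR-named. The 2 tables with the highest medians, AKR-named and C3Tag, are also those with the most genes of any kind at least 2-fold higher in Lung mets. The members were picked with earlier results of these data known, so these counts describe the set and do not test it.

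**Figure D1:**
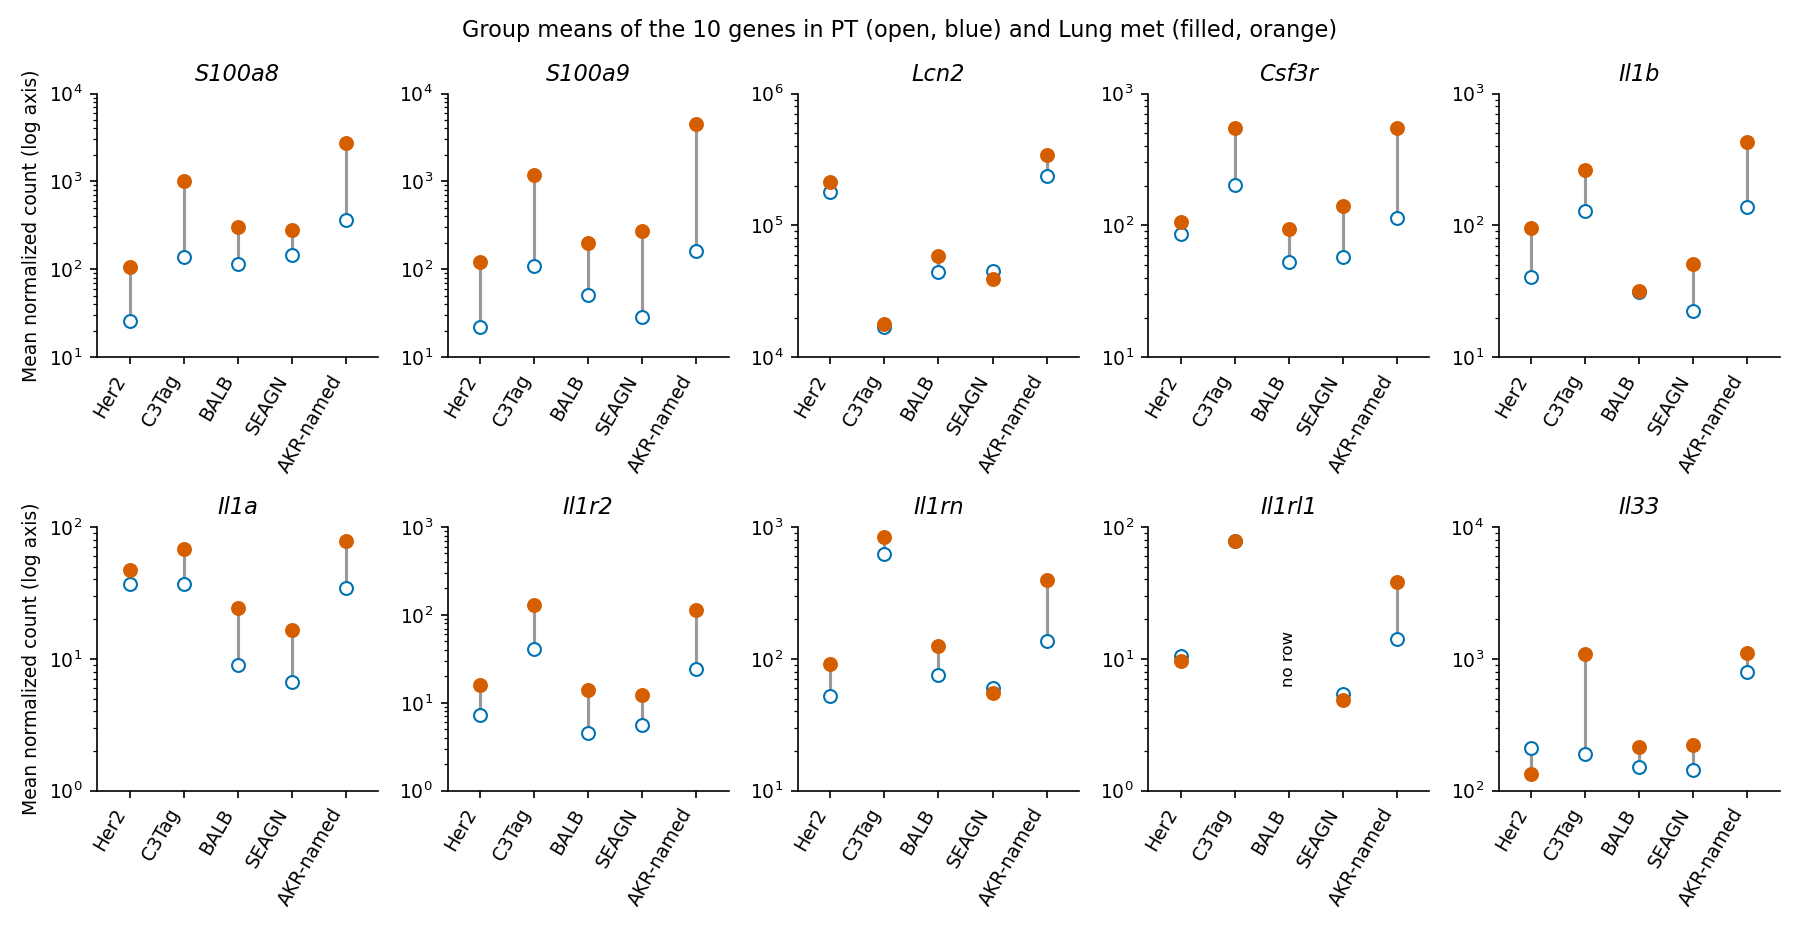
Mean normalized count (log axis) of each of the 10 genes in PT (open blue circles) and Lung met (filled orange circles) of 5 models, 1 panel per gene, with a line joining both means; no error is shown because the tables hold none. The axes span different ranges; S100a9 has the highest ratio of Lung met to PT in each of the 5 models, from 3.90 to 28.2, the Lcn2 points nearly touch, the C3Tag points of Il1rl1 coincide, and BALB has no row for Il1rl1.

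The alarmin genes had the highest median log2 ratios of the set over the 5 tables, with 3.26 for S100a9 and 2.05 for S100a8 against 1.64 for Il1r2, the next. S100a9 means were 21.9 in PT and 121 in Lung met in Her2, 110.2 and 1194 in C3Tag, 50.7 and 198 in BALB, 28.9 and 276 in SEAGN, and 161 and 4539 in AKR-named. The Lung met mean was thus between 3.90 and 28.2 times the PT mean, the highest ratio of any member in each of the 5 tables. Only 13 of 17829 genes in AKR-named, 31 of 17351 in SEAGN, 75 of 18208 in Her2, 77 of 17270 in BALB and 96 of 19320 in C3Tag had a higher ratio.

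S100a8, whose protein is the partner of S100A9, had means of 25.7 in PT and 106 in Lung met in Her2, 137 and 999 in C3Tag, 115 and 304 in BALB, 147 and 281 in SEAGN, and 361 and 2751 in AKR-named. Its log2 ratio was 2.05, 2.86, 1.41, 0.94 and 2.93 in that order, so SEAGN stayed just under 2-fold. In every table the log2 ratio of S100a9 exceeded that of S100a8, by 0.43 in Her2, 0.58 in C3Tag, 0.56 in BALB, 2.32 in SEAGN and 1.88 in AKR-named. The proteins work as a pair, yet in SEAGN the S100a8 mean was 1.92 times and the S100a9 mean 9.56 times that of PT.

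Csf3r, a receptor on the neutrophil surface, had means of 86.4 in PT and 107 in Lung met in Her2, 204 and 546 in C3Tag, 53.1 and 93.8 in BALB, 58.1 and 140.4 in SEAGN, and 113 and 552 in AKR-named. The ratio ran from 1.23 in Her2 to 4.89 in AKR-named and was at least 2 in 3 tables. Its log2 ratio was below that of S100a9 in every table, by 1.14 in BALB to 2.52 in AKR-named.

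Lcn2 had higher means than S100a8, S100a9 and Csf3r in every table. Its ratio was below each of theirs, though close to that of Csf3r in Her2. Its means were 177755 in PT and 211749 in Lung met in Her2, 17097 and 18022 in C3Tag, 44471 and 58159 in BALB, 44825 and 38998 in SEAGN, and 236603 and 339765 in AKR-named. The log2 ratio lay between -0.20 in SEAGN and 0.52 in AKR-named, and no table reached a 2-fold difference. Per kilobase of merged exons, Lcn2 stood first of the 10 genes in PT and in Lung met of Her2, C3Tag and AKR-named, the 3 tables whose identifiers match the annotation. In Her2 Lung mets its mean per kilobase was 80728, against 232 for S100a9 and 153 for S100a8, and in C3Tag Lung mets it was 6871 against 2288 and 1440.1.

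**Figure D2:**
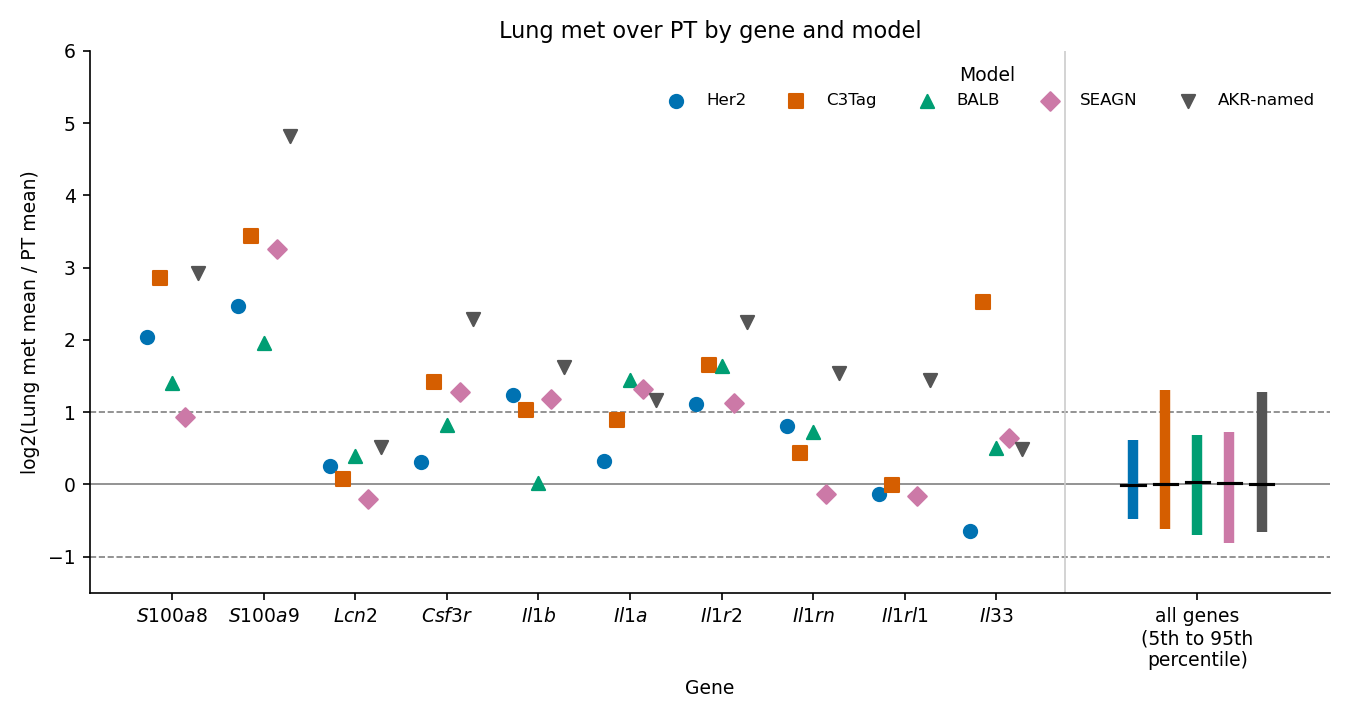
Log2 ratio of the Lung met mean over the PT mean for each of the 10 genes in 5 models (one symbol per model), with dashed lines at a 2-fold difference; the bars on the right span the 5th to the 95th percentile of all genes in each table and the black ticks mark the median. S100a9 lies between 1.96 and 4.82, Lcn2 between -0.20 and 0.52, and Il33 is above the 2-fold line only in C3Tag.

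The agonist Il1b, a cytokine that needs cleavage by caspase-1 before it is secreted, had means of 40.8 in PT and 95.8 in Lung met in Her2, 129 and 264 in C3Tag, 31.1 and 31.5 in BALB, 22.4 and 50.6 in SEAGN, and 139 and 430.5 in AKR-named. It was at least 2-fold higher in 4 tables, with ratios of 2.05 in C3Tag to 3.10 in AKR-named. With 10 added to both means the log2 ratio was 0.98 in C3Tag and 0.90 in SEAGN, just under 2-fold. BALB stood apart with a ratio of 1.01, and 8913 of its 17270 genes had a higher one.

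Il1a, whose product is active without cleavage and can act as an alarmin itself, had means of 37.3 in PT and 46.8 in Lung met in Her2, 36.7 and 67.9 in C3Tag, 8.94 and 24.3 in BALB, 6.67 and 16.7 in SEAGN, and 34.4 and 77.7 in AKR-named. It was at least 2-fold higher in the 3 PyMT-F1 tables but not in Her2 or C3Tag, where the ratios were 1.26 and 1.85. Adding 10 to both means took all 3 PyMT-F1 tables below 2-fold, with log2 ratios of 0.86 in BALB, 0.68 in SEAGN and 0.98 in AKR-named. The same step gave 0.27 in Her2 and 0.74 in C3Tag, so C3Tag was then above SEAGN. The step is not equal between tables, as the median PT mean over all genes was 122 in SEAGN and 131 in BALB. It was 354 in C3Tag, 442 in Her2 and 470 in AKR-named, where 10 weighs less. The neighbors Il1a and Il1b had unlike ratios in BALB and Her2. In BALB the log2 ratio of Il1a was 1.44 and that of Il1b 0.021, while in Her2 they were 0.33 and 1.23. They were closer in C3Tag, SEAGN and AKR-named, where Il1a minus Il1b was -0.15, 0.14 and -0.46.

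Among the inhibitors, the decoy receptor Il1r2 was at least 2-fold higher in Lung mets in all 5 tables, which otherwise only S100a9 was. Its means were low, at 7.36 in PT and 15.8 in Lung met in Her2, 40.7 and 129 in C3Tag, 4.49 and 14.0 in BALB, 5.54 and 12.1 in SEAGN, and 24.0 and 115 in AKR-named. The log2 ratios were 1.11, 1.66, 1.64, 1.13 and 2.25. Adding 10 to both means before the ratio took Her2, BALB and SEAGN below 2-fold, with log2 ratios of 0.57, 0.73 and 0.51. In these 3 tables the 10 added exceeds the PT mean of Il1r2.

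Il1rn, the secreted antagonist, had means of 52.4 in PT and 91.4 in Lung met in Her2, 629 and 846 in C3Tag, 75.3 and 125 in BALB, 60.2 and 55.04 in SEAGN, and 137 and 399.5 in AKR-named. It reached 2-fold in AKR-named alone, with a ratio of 2.92, and in SEAGN the Lung met mean was 0.915 times that of PT.

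Set against Il1b, the inhibitors did not follow one order. The log2 ratio of Il1rn minus that of Il1b was -0.43 in Her2, -0.61 in C3Tag, 0.71 in BALB, -1.31 in SEAGN and -0.083 in AKR-named. The ratio of the antagonist, not its level, was thus below that of the agonist in 4 tables, though barely in AKR-named, and above it in BALB. In SEAGN the Il1b to Il1rn quotient in Lung mets was 2.47 times that in PTs, and in BALB it was 0.611 times that in PTs. For Il1r2 minus Il1b the differences were -0.13 in Her2, 0.62 in C3Tag, 1.62 in BALB, -0.046 in SEAGN and 0.62 in AKR-named. BALB therefore had the highest value in both pairs, which rests on its Il1b means of 31.1 and 31.5. With 10 added to all means, Il1r2 minus Il1b in BALB was 0.71.

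**Figure D3:**
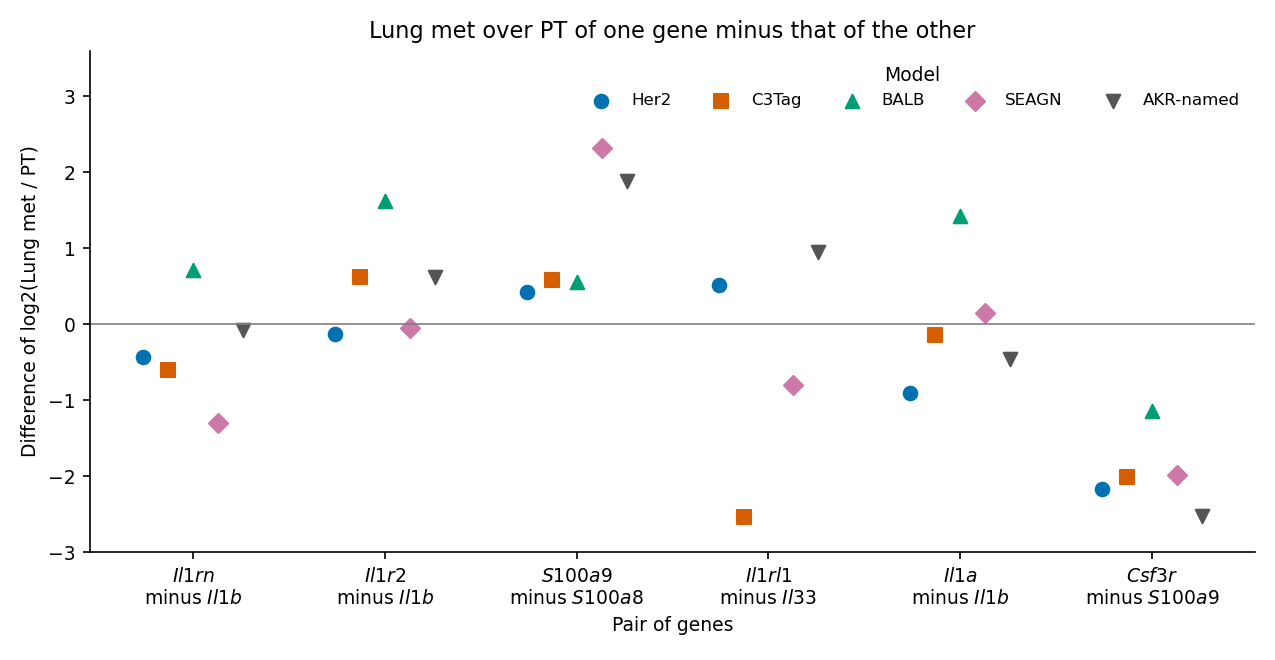
Difference between the log2 ratios (Lung met over PT) of both genes of a pair in 5 models; a value above 0 means that the gene named first had the higher ratio. S100a9 minus S100a8 is above 0 and Csf3r minus S100a9 below 0 in all 5 models, whereas Il1rl1 minus Il33 runs from -2.53 in C3Tag to 0.96 in AKR-named and has no BALB value.

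The IL-33 pair differed widely between models. Il33 had means of 210.3 in PT and 135 in Lung met in Her2, 190.1 and 1097 in C3Tag, 152 and 215 in BALB, 143 and 224 in SEAGN, and 789 and 1113 in AKR-named. Its ratio was 5.77 in C3Tag, between 1.41 and 1.56 in the PyMT-F1 tables, and 0.640 in Her2, the lowest ratio of any member in any table. In Her2 3.06% of all genes had a lower ratio than Il33, and in C3Tag 98.8% had.

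The receptor gene Il1rl1 had means of 10.49 in PT and 9.57 in Lung met in Her2, 78.5 and 78.3 in C3Tag, 5.42 and 4.84 in SEAGN, and 14.1 and 38.6 in AKR-named. Only AKR-named reached 2-fold, with a ratio of 2.73. In C3Tag the ligand mean was 5.77 times and the receptor mean 0.997 times that of PT, and in AKR-named the order was the reverse, with the receptor ahead by 0.96 on the log2 scale. Il1rl1 was last of the 10 genes per kilobase in both tissues of Her2, C3Tag and AKR-named.

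Other genes of the pathway were taken from lists chosen by function. Of the IL-1 receptor signaling genes (Myd88, the Irak kinases, Traf6, NF-kB and its inhibitors among 12 listed), none was 2-fold higher or lower except Irak3, a brake on the pathway, in C3Tag, where 1 of 12 passed. Their median log2 ratio was 0.13 in Her2, 0.17 in C3Tag, 0.11 in BALB, 0.12 in SEAGN and -0.17 in AKR-named. The member with the highest median was Nfkbia, an NF-kB inhibitor and target, with log2 ratios of 0.036 to 0.60, and the lowest was Nfkbiz, with -0.49 to 0.19 in 3 tables. The inflammasome list, which processes IL-1 beta, had 2 of 8 genes at least 2-fold higher in C3Tag, the pore-forming Gsdmd and the sensor Nlrc4, and none in the other tables. Gsdmd had the highest median of that list, with log2 ratios of 0.15 to 1.47, and the ATP-gated channel P2rx7 the lowest, with -0.43 to 0.00095.

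Among the other receptors and inhibitors of the family, Il18r1, the ligand-binding chain of the IL-18 receptor, was at least 2-fold higher in 4 of 5 tables. Its means were 413 in PT and 1855 in Lung met in C3Tag, 40.6 and 95.9 in BALB, 37.8 and 119 in SEAGN, and 241 and 548 in AKR-named, against 707 and 985 in Her2. The IL-1 receptor Il1r1 itself had means of 294 in PT and 283 in Lung met in Her2, 815 and 1295 in C3Tag, 85.5 and 99.8 in BALB, 101.9 and 103 in SEAGN, and 216 and 261 in AKR-named. It was named for its role and reached 2-fold in no table. Of the other ligands listed, Il18 had means of 67.0 in PT and 57.6 in Lung met in Her2, 15.2 and 109 in C3Tag, 2.31 and 7.54 in BALB, and 32.6 and 92.3 in AKR-named, at least 2-fold higher in 3 of these 4 tables. Il36g was 2-fold lower in C3Tag, at 96.1 and 30.6, and higher in AKR-named, at 4.39 and 51.7, and had no row elsewhere.

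Genes that IL-1 is known to induce gave mixed counts, with 4 of 8 at least 2-fold higher in Her2, 2 of 9 in C3Tag, 2 of 5 in BALB, 1 of 5 in SEAGN and 4 of 9 in AKR-named. Saa3, an acute-phase gene, was the 1 gene at least 2-fold lower in a table, with a ratio of 0.438 in C3Tag, and it was higher in the others, with 7.38 in Her2, 4.65 in BALB, 1.62 in SEAGN and 2.36 in AKR-named. Icam1, the adhesion ligand by which neutrophils leave vessels, was the gene that passed in all 5, with ratios of 3.04 in BALB to 8.18 in AKR-named. The median log2 ratio of the list ran from 0.050 in SEAGN to 0.88 in AKR-named. Among genes of the cells that respond to IL-33, the type 2 cytokines Il4, Il5 and Il13 had no row in any table. Arg1 had log2 ratios of -0.73 to 1.42 and Il2ra of -0.086 to 2.09, and of the mast cell and basophil list only Kit had a row, with -0.23 to 0.51.

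The remaining S100 family shared this pattern in part. S100a4 was at least 2-fold higher in C3Tag and AKR-named, with log2 ratios of -0.15 to 2.88 over the tables, and S100b was 2-fold lower in Her2 and SEAGN, with -2.02 to 0.31. In C3Tag S100a4, at 2.88, was as high as S100a8, at 2.86. S100a14 was at least 2-fold higher in C3Tag and BALB, with -0.81 to 1.57 in 4 tables. S100a6 was so in C3Tag alone, with -0.71 to 1.03. The median of the family without the alarmins was 0.022 in Her2, 0.75 in C3Tag, 0.25 in BALB, -0.15 in SEAGN and 0.62 in AKR-named, below both alarmins in every table.

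Markers of cell types differed along with the members. Of 20 neutrophil genes listed apart from the members, 10 to 13 had means, and 4 of 10 in Her2, 10 of 13 in C3Tag, 5 of 10 in BALB, 8 of 11 in SEAGN and 9 of 12 in AKR-named were at least 2-fold higher in Lung mets. Mmp9, a granule protease gene, had a ratio of 0.385 in Her2, the only one at least 2-fold lower, and 4.25 in C3Tag, 1.61 in BALB, 2.65 in SEAGN and 7.58 in AKR-named. The median log2 ratio of the list was 0.73, 2.12, 1.08, 1.52 and 3.06, the same order of the 5 tables as for the members' median. The chemokine receptor Cxcr2 had means of 3.82 and 21.0 in Her2, 46.2 and 1615 in C3Tag, 18.2 and 48.8 in BALB, 13.8 and 85.6 in SEAGN, and 27.6 and 421 in AKR-named. The granule genes Ngp and Mmp8 were at least 2-fold higher in each of the 4 tables that list them, and the lectin receptor Clec4d in 4 of 5. Prtn3 and G0s2, also on the list, reached 2-fold in none of the 5 tables, with ratios of 0.699 to 1.44 and 0.687 to 1.42. Both had ratios below 1 in C3Tag and AKR-named. The granule genes Elane, Camp and Ctsg, the surface gene Ly6g and the granulocyte transcription factor gene Cebpe had no row in any table, and Mpo had one in C3Tag alone, at 2.57 and 12.4. The list also counts Csf3, which encodes G-CSF, the ligand of Csf3r, and is not a marker of neutrophils. Its ratio was 2.24 in C3Tag, 1.97 in BALB and 0.963 in SEAGN.

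The summed level of the neutrophil list was 8363 in PT and 25368 in Lung met in Her2, 3693 and 5944 in C3Tag, 9195 and 41081 in BALB, 5720 and 21299 in SEAGN, and 43035 and 79071 in AKR-named. Lactoferrin (Ltf), which mammary epithelium also makes, held the largest part of that sum in Lung mets of Her2, BALB, SEAGN and AKR-named, at 19792, 40131, 20197 and 74310. Its mean was lower in Lung mets of C3Tag, at 2741 in PT and 1532 in Lung met. In PTs of Her2 the largest part of the sum was G0s2, at 4455, with Ltf at 3777. Medians of the alveolar and endothelial lists were above 0 as well. Not every gene followed, as Aqp5 of the alveolar type 1 list had ratios of 0.914 in Her2 and 0.633 in BALB, and above 1 elsewhere. The median log2 ratio of the alveolar type 1 list was between 2.89 and 3.92, that of the alveolar type 2 list 1.24 in Her2, 7.06 in C3Tag, 3.96 in BALB, 4.57 in SEAGN and 3.50 in AKR-named, and that of the endothelial list 0.77 to 1.87. C3Tag, with the highest Il33 ratio, also had the highest alveolar type 2 median, and Her2, with the lowest Il33 ratio, had the lowest. These medians rest on 4 genes. In Her2 Sftpd, Slc34a2 and Abca3, with PT means of 1213, 1565 and 5907, had log2 ratios of 1.21, 1.26 and -0.020. Lamp3 in Her2 had 5.19, above 4.62 in AKR-named. The alveolar type 1 median was highest in AKR-named, at 3.92. A link between Il33 and the alveolar genes was not tested. The summed level of the alveolar type 2 list was 8704 in PT and 13066 in Lung met in Her2, 1925 and 37278 in C3Tag, 2373 and 5628 in BALB, 2080 and 7653 in SEAGN, and 5779 and 23954 in AKR-named. The surfactant genes Sftpa1, Sftpb and Sftpc had no row. The monocyte and macrophage list stayed near 0, with medians of -0.28 to 0.31, while the fibroblast list ran from -2.42 in SEAGN to -0.062 in C3Tag and the mammary epithelial list from -0.046 to 0.23. Whether lung tissue or its resident neutrophils in the Lung met samples had a part in the members' values was not tested.

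**Figure D4:**
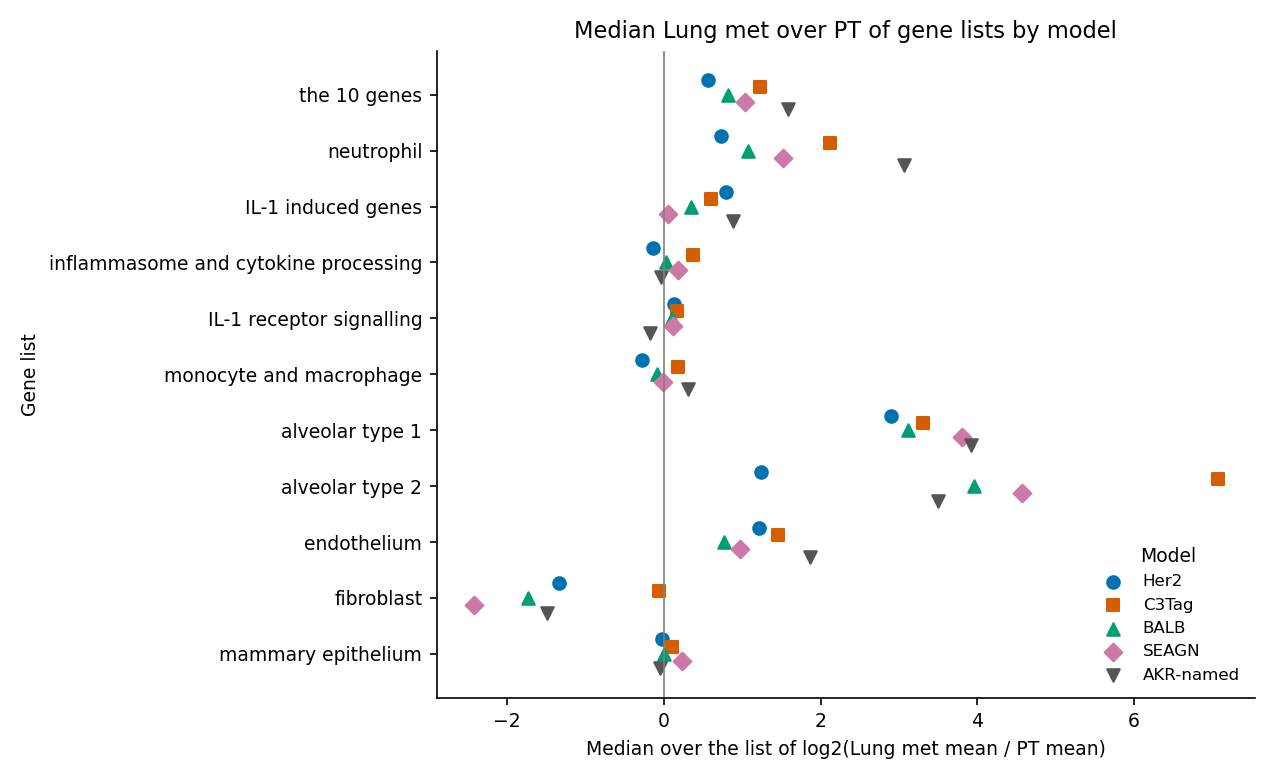
Median log2 ratio of Lung met over PT for the 10 genes and for 10 gene lists in 5 models (one symbol per model). The neutrophil medians run from 0.73 in Her2 to 3.06 in AKR-named, the monocyte and macrophage medians from -0.28 to 0.31, and the alveolar type 2 medians from 1.24 to 7.06.

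The genes most like a member were those with the smallest Euclidean distance between log2 ratios over the 5 tables, among 11920 genes with a mean of at least 10 in 1 tissue of each. For S100a8 these were Icam1, Dram1, Disp2, Adora2b and Lyve1, at distances of 0.919 to 1.07. Il1r2 came at rank 34, Csf3r at 130 and its partner S100a9 at 315 (distance 3.12), because S100a9 had higher ratios. For Il1b they included Gimap5, AI504432, Myct1 and Hp, with distances of 0.613 to 0.747, and for Il33 they were Ctse, Rab38, Slc16a12, Slc6a14 and Ccnd1, with 0.627 to 0.795. Il1rl1 could not be compared in this way without its BALB row. All 5 tables set Lung met against PT, and only 5 points enter each distance, so likeness here describes the shape over the models.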

How the data were processed

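The 74 samples are bulk RNA-seq libraries of PTs and Lung mets. The labels name an Illumina Stranded Total RNA kit with rRNA removal, the methods an mRNA library on the HiSeq2500. Per the submitters' processing notes, STAR 2.7.8a, DESeq2 and the build mm39 were used, whereas the methods name Partek Flow with mm9 or mm10, Gene Specific Analysis for driver models and DESeq2 for PyMT-F1 models. BALB and SEAGN rows carry BALB/cJ gene identifiers. The normalization is not given in the sources used here, and values per kilobase take the counts as not corrected for gene length.

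The authors deposited least-squares means of normalized counts per tissue, used here as a signal with neither SD nor n. The p-value, FDR, ratio and fold change columns hold the authors' own comparisons and gave no value here (the fold changes served only to check which cross the AKR-named table holds), and the Myc table holds only a p-value and an FDR.

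The log2 ratio is the log2 of the Lung met mean over the PT mean. Rows without both means (0 to 116 per table) were left out. A symbol with several rows took the row with the highest mean. No test was run. Members and lists were chosen with earlier results of these data known. Named genes are all members, of each list the genes past 2-fold one way in at least 4 tables or else the highest and lowest median among genes with a mean of at least 10 in 1 tissue, and the 5 nearest genes of S100a8, Il1b, Il1rl1 and Il33, except 1 gene that is not reported here. Genes named besides these (Il1r1, Il18, Irak3, Nlrc4, Saa3, Mmp9, Mpo, Ltf, Prtn3, G0s2, Csf3, S100a6, S100a14, Aqp5, Pdpn, Abca3, Pdgfra, Dcn, Cd8a) were chosen by role or after their values were seen. The pairs Il1a with Il1b and Csf3r with S100a9 were added after seeing the data. Promoters are from RefSeq (GRCm38.p6), gene positions and merged exon lengths from GENCODE M21 (GRCm38). Simulated data served to test the computations, run in Python 3.11.15 with numpy 2.4.6, pandas 2.3.3 and matplotlib 3.10.9. The alternatives tried were pseudocounts of 1 and 10, centring on the median gene, a mean of at least 10 in 1 tissue, folds of 1.5 and 3, and summed rows of a symbol.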

Additional observations from a re-analysis of the deposited data

How the results depend on the processing

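One log2 ratio of a member changed sign under an alternative: Il1b in BALB, at 0.021, was -0.013 when centred on the median gene. On size, 236 values stayed on their side of 2-fold. The 8 that dropped below 2-fold did so with a pseudocount of 10, namely Il1r2 in Her2, BALB and SEAGN, Il1b in C3Tag and SEAGN, and Il1a in BALB, SEAGN and AKR-named. With that pseudocount the members at least 2-fold higher were 2 in BALB and 2 in SEAGN, the members' median in SEAGN was 0.64 and Il1r2 minus Il1b in BALB was 0.71. A fixed pseudocount weighs more in BALB and SEAGN, whose means over all genes are the lowest. A pseudocount of 1 gave a members' median of 0.97 in SEAGN and a neutrophil median of 0.98 in BALB. At 3-fold the counts were 2 in Her2, 2 in BALB, 1 in SEAGN and 5 in AKR-named, and at 1.5-fold 1 member, Il33, was lower in Her2. A mean of at least 10 in 1 tissue removed Il1rl1 from SEAGN.

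No paired analysis was possible because the tables hold group means and no value of a sample, and for the same reason leaving out each replicate was not run. Depth, the spread between animals and the number of C3Tag PTs behind the mean (the labels and the study's sample table differ) are unknown, so small ratios and means near 10 or below, as for Il1rl1, Il1r2 and Il1a, carry the least weight. The strain of the AKR-named table is uncertain.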

Other observations

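Marker genes behind the list medians gave these log2 ratios of Lung met over PT. In the alveolar type 1 list Ager, the RAGE receptor gene, had 4.04 to 5.48 over the 5 tables and Hopx, Rtkn2 and Clic5 were also at least 2-fold higher in each. In the alveolar type 2 list Sftpd had 1.21 to 6.29, Lamp3 4.62 to 7.84 and Slc34a2 1.26 to 7.96. The endothelial genes Vwf and Cldn5 had 1.62 to 3.23 and 1.21 to 4.49, and the fibroblast matrix genes Lum, Col1a1 and Col1a2 had -5.39 to -1.63, -2.81 to -0.62 and -2.32 to -0.062. The fibroblast list did not move as one, as its gene Pdgfra was higher in Lung mets in all 5 tables, with 0.44 to 0.94. Dcn of that list had -2.42 to 0.75. Of the mammary epithelial genes, Epcam had -0.68 to 0.046 and Krt5 -0.55 to 1.69 in the 3 tables that list it. Of 7 alveolar macrophage genes, 1 to 4 had means, and the chitinase-like gene Chil3 had a log2 ratio of 5.80 and 5.83 in the 2 tables that list it, while the lipid-binding Fabp4 had -2.73 to -0.38 in 4. In the monocyte and macrophage list Ly6c2, a monocyte surface gene, was at least 2-fold higher in each of the 3 tables that list it, with log2 ratios of 1.38 to 3.54, and the mannose receptor Mrc1 had -1.64 to 0.79. T cell markers were at least 2-fold higher in 3 of 5 genes in AKR-named and 1 of 3 in SEAGN, with Cd4 at -0.18 to 0.61. Cd8a was lower in Lung mets in each of the 4 tables that list it, with -0.84 to -0.44. The median of the T cell list was -0.32 in Her2 and -0.18 in C3Tag. B cell markers had means only in C3Tag and AKR-named, where Cd79b had 1.46 and 2.92. In the keratinizing epithelium list, Krt10 had -1.99 to 0.52 over 4 tables and Krt6a 1.36 in the single table that lists it.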
